A study of Mus musculus with 12 samples.

Results

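The aminoacyl-tRNA synthetases were read out as mRNAs in mouse fibroblasts in which Myc and YAP activity can be switched on separately. The members are the rows of the deposited RNA-seq table whose symbol is in a fixed list of 36 synthetase genes, out of 21671 genes in that table, and all 36 had enough reads to be tested. Of these, 20 encode the cytosolic enzymes and 16, with the suffix 2, the mitochondrial enzymes. They were listed by function, with earlier results of these data known.

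An aminoacyl-tRNA synthetase joins an amino acid to the tRNA that carries its anticodon, which is the step at which the genetic code is read into protein. Mammalian cells hold a cytosolic and a mitochondrial set, most of them from separate nuclear genes. Glycyl-tRNA and lysyl-tRNA synthetase serve both compartments from 1 gene each (Gars, Kars), and Eprs charges both glutamate and proline. Several cytosolic synthetases are known targets of ATF4, the transcription factor that answers amino acid shortage, and Myc is known for driving genes of protein synthesis.

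The cells were 3T9MycER immortalized mouse embryonic fibroblasts, which carry MycER, a Myc protein held inactive until 4-hydroxytamoxifen (OHT) is added. They had also been infected with a vector for doxycycline-inducible YAPS127A, a YAP mutant that escapes inhibition by the Hippo pathway, and selected with hygromycin, so all groups carry both constructs. The 4 groups of 3 libraries each were a control (labelled CTRL), OHT (labelled 400 nM), doxycycline (dox, 2 µg/ml) and OHT+dox, in serum-starved confluent cultures as the study's methods describe them. Dox given to cells without the YAPS127A vector and OHT given to cells without MycER were not analysed here, so the effect of each agent itself and that of the protein it switches on cannot be told apart.

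The table holds means over groups and no value for a single library, so each level below is the mean normalized count of a group of 3 libraries and the spread of its libraries cannot be shown. A normalized count is a read count divided by the size of its library, and levels are compared here only within a gene. Fold changes are log2 differences between group means, given ± standard error (SE), and a gene is said to rise or fall where a two-sided Wald test gave an adjusted p under 0.05 over 12259 genes. Nothing says that the libraries of a group came from separate cultures, so these p-values rest on a spread between libraries that may be technical. That spread is a dispersion per gene, recovered from the deposited comparisons and averaged over the 3 of them. It is not the observed spread of any single group. All comparisons with control share the same 3 control libraries. Because the values are relative to the other RNAs of a bulk library, less RNA per cell and fewer cells of a type cannot be told apart.

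Library size factors lay between 0.814 and 1.13, and 7 of 8 fibroblast markers were present at mean normalized counts of 2587 to 6155, whereas Thy1 was near 0. Of 20 markers of macrophages, epithelium, endothelium, muscle and fat, 19 reached at most 6.07, and Cd68 reached 41.3. Ctgf, a YAP target, went up with dox (0.64 ± 0.09) and down with OHT (−0.32 ± 0.09), and Ncl, a Myc target, rose more with OHT (0.94 ± 0.10) than with dox (0.45 ± 0.10). Odc1, another Myc target, did the opposite: it did not pass with OHT (0.04 ± 0.08) and rose with dox (0.37 ± 0.08). The Yap1 row did not pass with dox (−0.05 ± 0.09), and the sources used here do not say whether reads of the YAPS127A construct count in it. The Myc row fell with OHT (−1.15 ± 0.15) and rose with dox (0.75 ± 0.14), with the same limit for the MycER construct.

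Promoters are shown for the 5 members that hold the ATF4 element, and for Farsb, the cytosolic gene that changed most, which holds the Myc element without it. The windows are RefSeq sequences of GRCm38.p6, from 250 bases before to 50 bases after the gene start, and are not in the build of the read mapping, which was mm9. They lie at chr8:111033592-111033891 (Aars, plus strand), chr6:55037751-55038050 (Gars, plus), chr13:49681880-49682179 (Iars, plus), chr15:11399609-11399908 (Tars, minus), chr4:129189653-129189952 (Yars, plus) and chr1:78488848-78489147 (Farsb, minus). Capitals mark CACGTG, the E-box that Myc and its partner Max can bind, and TGATGNAA, the composite element that ATF4 can bind, where it may read TTTCATCA or TTGCATCA on the opposite strand.
Aars: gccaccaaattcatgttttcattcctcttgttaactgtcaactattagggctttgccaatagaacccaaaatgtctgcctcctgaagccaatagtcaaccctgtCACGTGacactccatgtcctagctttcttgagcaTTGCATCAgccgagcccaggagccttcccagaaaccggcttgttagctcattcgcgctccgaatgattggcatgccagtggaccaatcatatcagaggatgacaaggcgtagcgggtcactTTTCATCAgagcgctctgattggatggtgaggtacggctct
Gars: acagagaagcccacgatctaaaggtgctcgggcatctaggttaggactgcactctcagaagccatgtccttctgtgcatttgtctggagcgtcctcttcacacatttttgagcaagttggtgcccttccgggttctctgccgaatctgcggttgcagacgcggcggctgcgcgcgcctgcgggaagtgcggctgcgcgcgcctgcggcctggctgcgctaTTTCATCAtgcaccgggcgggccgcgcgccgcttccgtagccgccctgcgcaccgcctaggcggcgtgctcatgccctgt
Iars: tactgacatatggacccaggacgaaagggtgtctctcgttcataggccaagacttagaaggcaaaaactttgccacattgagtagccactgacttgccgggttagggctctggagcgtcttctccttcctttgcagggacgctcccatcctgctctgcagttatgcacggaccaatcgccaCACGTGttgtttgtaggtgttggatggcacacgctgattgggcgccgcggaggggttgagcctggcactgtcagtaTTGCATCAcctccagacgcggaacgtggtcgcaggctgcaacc
Tars: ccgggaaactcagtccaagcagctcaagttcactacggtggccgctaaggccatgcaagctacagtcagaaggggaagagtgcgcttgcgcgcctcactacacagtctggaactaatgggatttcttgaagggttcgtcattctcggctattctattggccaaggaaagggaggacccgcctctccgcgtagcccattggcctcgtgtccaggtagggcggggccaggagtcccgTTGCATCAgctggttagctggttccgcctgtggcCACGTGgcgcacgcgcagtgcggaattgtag
Yars: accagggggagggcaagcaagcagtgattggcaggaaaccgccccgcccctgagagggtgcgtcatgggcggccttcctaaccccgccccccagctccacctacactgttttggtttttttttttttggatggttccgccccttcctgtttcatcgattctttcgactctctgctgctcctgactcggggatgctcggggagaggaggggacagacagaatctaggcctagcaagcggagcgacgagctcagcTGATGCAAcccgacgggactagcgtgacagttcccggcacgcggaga
Farsb: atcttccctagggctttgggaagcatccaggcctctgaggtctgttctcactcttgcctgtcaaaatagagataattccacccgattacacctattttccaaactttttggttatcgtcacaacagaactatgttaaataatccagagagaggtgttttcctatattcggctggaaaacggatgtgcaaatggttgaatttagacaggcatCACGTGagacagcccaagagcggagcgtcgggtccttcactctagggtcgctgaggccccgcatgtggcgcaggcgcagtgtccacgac

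A window was found for 27 of the 36 members. The letters TGATGNAA stood in 5 of them, namely Aars, Gars, Iars, Tars and Yars, against 3.97% of all 32851 windows searched on both strands. In Aars the element stood at 2 places, 112 bases before and 10 bases after the start, and in Gars, Iars, Tars and Yars it lay within 30 bases of the start. None of the 14 mitochondrial windows held it. CACGTG stood in Aars, Iars, Tars, Farsb and Ears2, against 7.15% of all windows, and in Aars, Iars and Tars it accompanied the ATF4 element without overlapping it. GGAATG, the element of the TEAD factors through which YAP acts, stood in 6 members (Aars, Dars, Ears2, Tars2, Wars2 and Yars2), against 14.7% of all windows. A match describes the letters in this window and no more, and no binding was measured for it here.

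With OHT+dox, 19 of the 20 cytosolic synthetase mRNAs rose and none fell, where 20.8% of all genes tested rose and 19.2% fell. The median cytosolic log2 fold change was 0.56, against −0.01 over all genes, and the changes were modest in size: 11 of the 19 exceeded 0.5. Of the 16 mitochondrial mRNAs, 7 rose and none fell, with a median of 0.30. OHT alone raised 11 cytosolic and 5 mitochondrial members, where 12.7% of all genes rose and 8.96% fell. Dox alone raised 14 cytosolic and 2 mitochondrial members, where 6.26% of all genes rose and 4.55% fell. No member fell with either agent. Of all 36 members, 27 had their highest mean in OHT+dox, 18 of them cytosolic and 9 mitochondrial. Some did so by margins within the error, such as Hars2 (0.01 ± 0.11 over OHT). The share of all genes that peak there was not counted, so this count has no background.

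**Figure D1:**
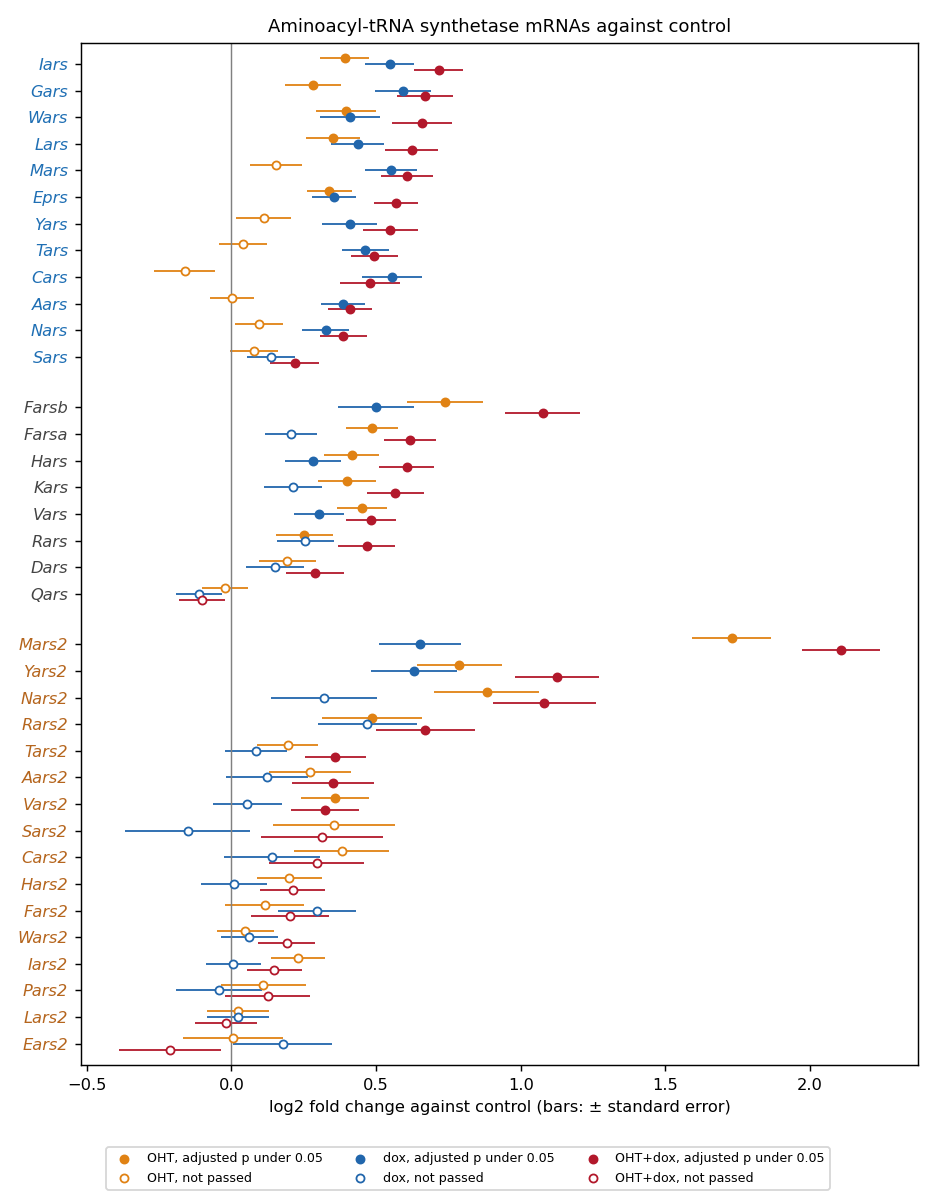
Log2 fold change of each of the 36 synthetase mRNAs against control with OHT (orange), dox (blue) and OHT+dox (red), with bars for ± SE and filled points for an adjusted p under 0.05. Names in blue are the 12 cytosolic genes tied to the amino acid response, names in grey the 8 other cytosolic genes and names in brown the 16 mitochondrial genes. The red points are filled for all cytosolic genes except Qars, and Mars2 stands farthest to the right.

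Among the cytosolic enzymes the largest rise was that of Farsb, the beta subunit of phenylalanyl-tRNA synthetase. Its level was 255 in control, 426 with OHT, 361 with dox and 538 with OHT+dox, so that each treatment raised it and the combination took it to 2.11-fold of control (log2 1.08 ± 0.13). Farsa, the catalytic alpha subunit of the same enzyme, stood at 993 in control, 1389 with OHT, 1144 with dox and 1522 with OHT+dox. It rose with OHT (0.49 ± 0.09) and OHT+dox (0.62 ± 0.09) and did not pass with dox (0.21 ± 0.09, adjusted p = 0.137 by the Wald test). Reads of Farsb cannot be told from those of Sgpp2, on the opposite strand, over 248 exonic bases of the GRCm38 annotation, because the library kit does not keep the strand.

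The multisynthetase complex, a large assembly of cytosolic synthetases, holds 8 of the members, and 12 lie outside it. In OHT+dox, 7 of 8 in the complex rose with a median of 0.57, and 12 of 12 outside it rose with a median of 0.52. Iars, for isoleucine, went from 1047 in control to 1373 with OHT, 1529 with dox and 1719.9 with OHT+dox, the largest change in the complex (0.72 ± 0.08). Lars, for leucine, rose likewise, from 813 in control to 1036 with OHT, 1099.7 with dox and 1251 with OHT+dox (0.62 ± 0.09). Eprs, the bifunctional enzyme, stood at 2032 in control, 2569.7 with OHT, 2599 with dox and 3014 with OHT+dox (0.57 ± 0.08). These 3 genes rose with each treatment.

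Kars and Rars, for lysine and arginine, rose with OHT and with OHT+dox only. Kars stood at 840.4 in control, 1108 with OHT, 974 with dox and 1245 with OHT+dox (0.57 ± 0.10). Its change with dox (0.21 ± 0.10) did not pass, and neither did its difference between OHT and dox (0.18 ± 0.10). Rars changed by the same amount with OHT (0.25 ± 0.10) and with dox (0.26 ± 0.10), on either side of the threshold, so its place among the OHT genes rests on the cutoff. With OHT+dox Rars rose by 0.47 ± 0.10, and Dars, for aspartate, which passed with neither agent alone, rose by 0.29 ± 0.10. Qars, for glutamine, was the exception of the cytosolic set. Its level was 1517 in control, 1494 with OHT, 1402 with dox and 1412 with OHT+dox (−0.10 ± 0.08, 95% interval −0.26 to 0.05), so a rise as large as the cytosolic median lies outside its interval.

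The scaffold proteins of the complex did not move together. Eef1e1 (also called AIMP3) rose from 206 in control to 459.8 with OHT, 330.1 with dox and 542 with OHT+dox (2.63-fold, with an SE of 0.13 on the log2 scale), a larger change than in any cytosolic synthetase. Aimp2 rose from 317 in control to 406 with OHT, 436 with dox and 516 with OHT+dox (0.71 ± 0.12). Aimp1 passed in no comparison, with levels of 381 in control, 395 with OHT, 375 with dox and 404 with OHT+dox (0.08 ± 0.12).

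Split by the fold of the catalytic domain, the class I enzymes, of which 9 are single-activity cytosolic members, and the 10 class II members gave similar counts against control, Eprs being left out because it joins both classes. In OHT+dox 8 of 9 class I and 10 of 10 class II mRNAs rose, with medians of 0.55 and 0.53. With dox 7 of 9 and 6 of 10 rose, and with OHT 5 of 9 and 5 of 10. In OHT+dox against dox, 0 of 9 class I and 4 of 10 class II mRNAs were higher, where 12.7% of all genes were. In OHT+dox against OHT, 4 of 9 and 4 of 10 were higher, where 2.62% of all genes were.

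The 2 single treatments differed in which cytosolic genes they raised. Compared directly, 7 cytosolic mRNAs were lower with OHT than with dox, where 7.57% of all genes were lower, and 1 was higher, where 8.73% of all genes were higher. The 7 were Aars, Cars, Gars, Mars, Nars, Tars and Yars, and the higher gene was Farsa. All of the 7 belong to a list of 12 cytosolic synthetases that earlier knowledge ties to ATF4 and the amino acid response. The list was set with earlier results of these data known, so its counts describe these data and test nothing. In that list, 11 of 12 rose with dox (median 0.42) and 5 of 12 with OHT (median 0.13). In the 8 other cytosolic genes, 3 rose with dox (median 0.23) and 6 with OHT (median 0.41). OHT minus dox was below 0 in 12 of 12 genes of the list and above 0 in 7 of the 8 others. Of the genes with a promoter window, 5 of 8 in the list and 0 of 5 others held TGATGNAA, which is no independent evidence, since such elements are part of why genes are tied to ATF4.

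Cars, for cysteine, showed the widest gap. Its level was 514 in control, 459 with OHT, 755 with dox and 715 with OHT+dox, so both groups with dox were high and the OHT group was not above control. It lay 0.72 ± 0.10 lower with OHT than with dox on the log2 scale (Wald test, adjusted p = 4.01e-10). Tars, for threonine, stood at 1380.3 in control, 1419 with OHT, 1902 with dox and 1944 with OHT+dox, a gap of −0.42 ± 0.08. Mars, for methionine, stood at 802 in control, 892 with OHT, 1174 with dox and 1220.4 with OHT+dox, a gap of −0.40 ± 0.09. In each of these genes the OHT+dox level differed from the dox level by less than 0.1 on the log2 scale, and none passed in that comparison.

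Aars, for alanine, hardly differed between control (1534) and OHT (1536), with a log2 fold change of 0.00 ± 0.08, and stood at 2004 with dox and 2039 with OHT+dox. Part of its count cannot be assigned with certainty, since 1326 exonic bases are shared with Exosc6 on the same strand. Gars, for glycine, was at 656 in control, 797 with OHT, 989 with dox and 1043 with OHT+dox, and rose with each treatment, more with dox than with OHT (difference −0.31 ± 0.10). Yars, for tyrosine, was at 711 in control, 768 with OHT, 945 with dox and 1041 with OHT+dox (difference −0.30 ± 0.09). Nars, for asparagine, had the smallest gap of the 7, −0.23 ± 0.08, with 1269.5 in control, 1356 with OHT, 1591 with dox and 1659 with OHT+dox.

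Of the other 5 genes in the list, Iars, Lars, Eprs and Wars rose with each treatment, and their difference between OHT and dox did not pass. Wars, for tryptophan, was at 526 in control, 692 with OHT, 699 with dox and 831 with OHT+dox (0.66 ± 0.10). Sars, for serine, was raised by OHT+dox only, by 0.22 ± 0.08. Outside the list, Hars, for histidine, stood at 668 in control, 892 with OHT, 813 with dox and 1017 with OHT+dox (0.61 ± 0.09), and rose with each treatment. Vars, for valine, also rose with each, by 0.45 ± 0.09 with OHT, 0.30 ± 0.09 with dox and 0.48 ± 0.09 with OHT+dox.

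**Figure D2:**
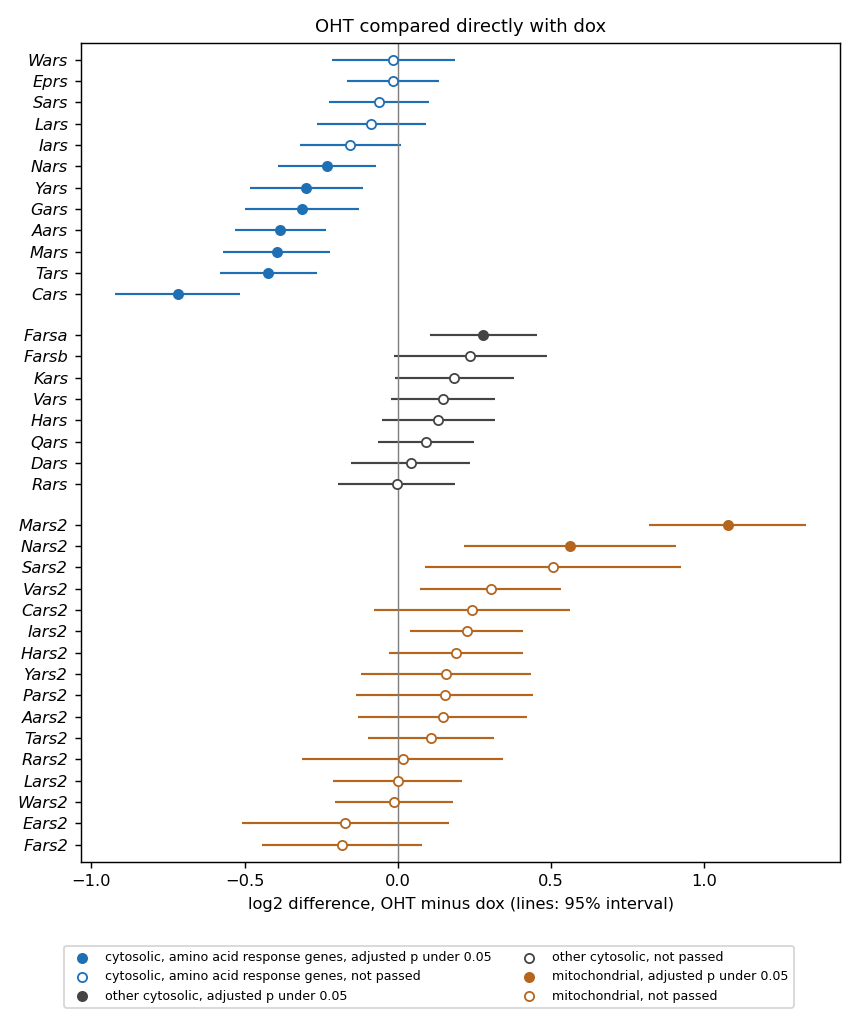
Log2 difference between OHT and dox for each synthetase mRNA, with lines for the 95% interval and filled points for an adjusted p under 0.05. The 12 cytosolic genes tied to the amino acid response (blue) lie at or left of 0, with Cars at −0.72, and of the mitochondrial genes (brown) Mars2 lies at 1.08 and Nars2 at 0.56.

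The same split appeared when dox was added to OHT. OHT+dox exceeded OHT in 8 cytosolic mRNAs, Aars, Cars, Gars, Iars, Mars, Nars, Tars and Yars, by 0.29 (Nars) to 0.64 (Cars), where 2.62% of all genes were higher and 2.17% lower. All 8 are in the list of 12. In the reverse step, OHT+dox exceeded dox in 5 cytosolic mRNAs, Eprs, Farsa, Farsb, Hars and Kars, by 0.21 (Eprs) to 0.57 (Farsb), where 12.7% of all genes were higher and 8.94% lower. No member was lower in either step. No cytosolic gene passed in both, where 0.742% of all genes did, but Eprs missed narrowly in OHT+dox against OHT (0.23 ± 0.08, Wald test, adjusted p = 0.0521) and passed in both under 5 of 9 other settings. With SEs scaled to the spread of the interaction, 7 cytosolic genes passed in both steps (Eprs, Farsb, Hars, Iars, Lars, Rars and Wars). The counts of the 2 steps and of OHT against dox rest on the same 4 group means, so they are not independent of each other.

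**Figure D3:**
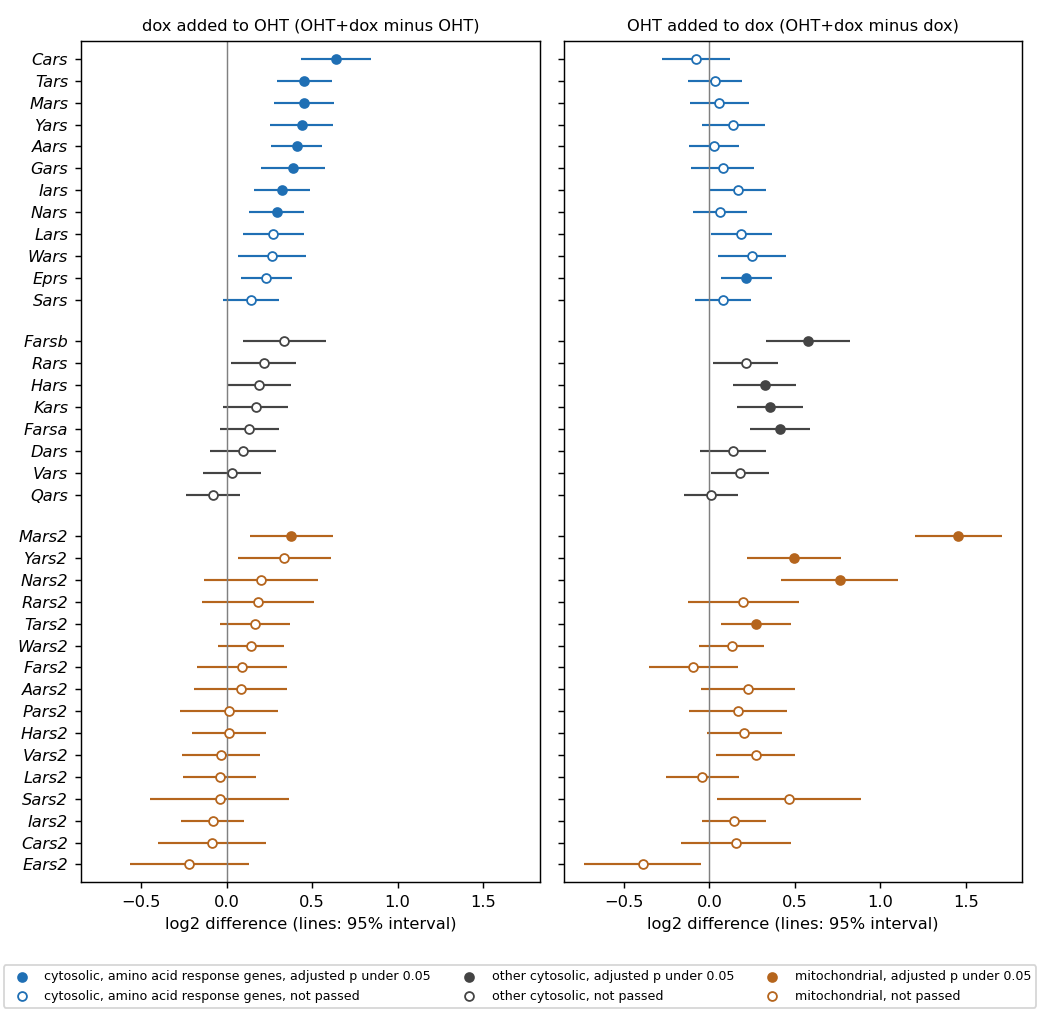
Log2 difference made by dox added to OHT (left) and by OHT added to dox (right) for each synthetase mRNA, with lines for the 95% interval and filled points for an adjusted p under 0.05. On the left 8 of 12 blue points and Mars2 are filled, and on the right Eprs, Farsb, Farsa, Kars, Hars and 4 mitochondrial genes.

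The interaction, that is OHT+dox set against the added log2 changes of OHT and of dox, was tested by the Wald test over all genes. It passed in 0 of 12259 genes, with 132 at an unadjusted p under 0.05. Among the members only Vars had an unadjusted p under 0.05, with an interaction of −0.27 ± 0.12, below the sum. The median interaction was −0.06 for cytosolic and −0.09 for mitochondrial members. The SE of an interaction was 0.11 to 0.18 for a cytosolic gene, and departures well above it did not pass either: that of Psat1, a gene of serine synthesis outside the members, was −0.53 ± 0.15 (Wald test, adjusted p = 0.44). With SEs scaled to the spread of the interaction itself, 6 genes lay above and 29 below the sum.

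The log2 fold changes of the mitochondrial enzymes in OHT+dox spanned −0.21 to 2.11, against −0.10 to 1.08 for the cytosolic enzymes. Larger SEs (median 0.14 against 0.09) widen a range by themselves. The low end, Ears2 (−0.21 ± 0.18), did not pass, and the high end is Mars2 alone. Mars2, the mitochondrial methionyl-tRNA synthetase, changed most of all 36 members. Its level was 165 in control, 548 with OHT, 259.5 with dox and 712 with OHT+dox, 3.32-fold, 1.57-fold and 4.31-fold of control (log2 1.73 ± 0.14, 0.65 ± 0.14 and 2.11 ± 0.14). At the settings used here it was also the only member above each single treatment in OHT+dox, by 1.46 ± 0.13 over dox and 0.38 ± 0.12 over OHT. The latter was near the threshold (Wald test, adjusted p = 0.0472) and was lost under 3 other settings of dispersion, scaling or prior, while other settings added Eprs, as above, and the scaled SEs also Yars2. Cytosolic Mars, above, was lower with OHT than with dox, whereas Mars2 was higher with OHT than with dox by 1.08 ± 0.13.

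Yars2, for tyrosine, stood at 182 in control, 314 with OHT, 282 with dox and 397 with OHT+dox (1.12 ± 0.14) and rose with each treatment. Nars2, for asparagine, was at 109.5 in control, 202 with OHT, 137 with dox and 232 with OHT+dox (1.08 ± 0.18), and was higher with OHT than with dox by 0.56 ± 0.18. Rars2, for arginine, was at 118 in control, 166 with OHT, 164 with dox and 188 with OHT+dox (0.67 ± 0.17), with nearly the same change by either agent. Vars2, for valine, rose with OHT (0.36 ± 0.12) and OHT+dox (0.32 ± 0.12), from 407 in control to 522 and 509.8, and stood at 423 with dox. Its row overlaps an antisense transcript over 296 exonic bases.

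Tars2 and Aars2, for threonine and alanine, rose with OHT+dox alone. Tars2 was at 499.9 in control, 572 with OHT, 530.4 with dox and 641 with OHT+dox (0.36 ± 0.10). Aars2 was at 214 in control, 258 with OHT, 233 with dox and 272 with OHT+dox (0.35 ± 0.14). In OHT+dox against dox, 4 mitochondrial members rose (Mars2, Nars2, Yars2 and Tars2), or 25%, where 12.7% of all genes were higher. In OHT against dox 2 were higher (Mars2 and Nars2), or 12.5%, not far from the 8.73% of all genes.

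**Figure D4:**
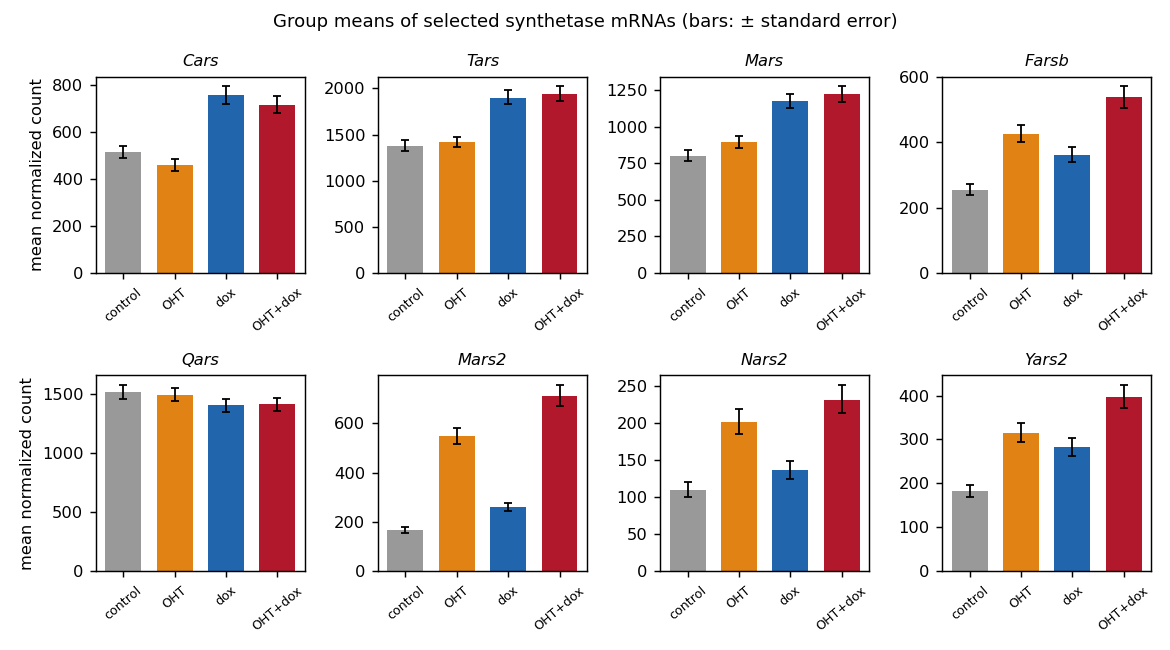
Mean normalized counts of 8 synthetase mRNAs in control (grey), OHT (orange), dox (blue) and OHT+dox (red), each bar a group of 3 libraries starting at 0, with lines for ± SE from the recovered dispersion. Cars, Tars and Mars are high in both groups with dox, Mars2 and Nars2 in both groups with OHT, Farsb and Yars2 climb with each, and Qars stays level.

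The other 9 mitochondrial members passed in no comparison with control. Sars2, for serine, had the fewest reads behind it and was at 89.3 in control, 114 with OHT, 80.4 with dox and 111 with OHT+dox. Its change of 0.31 ± 0.21 in OHT+dox has a 95% interval of −0.10 to 0.73. Cars2 was at 155, 202, 171 and 189.9 in control, OHT, dox and OHT+dox. In the same order Fars2 was at 250.3, 271, 307 and 288, and Pars2 at 199, 215, 193 and 217. The 95% intervals of Sars2 and Cars2 in OHT+dox end at 0.73 and 0.62, so they include a rise as large as the cytosolic median of 0.56. Those of Fars2 and Pars2 end at 0.47 and 0.41.

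Lars2, for leucine, stayed level at 677 in control, 687 with OHT, 688 with dox and 668 with OHT+dox (−0.02 ± 0.11, 95% interval −0.23 to 0.19). Wars2 was at 650.0, 672, 678 and 742 in the same order, and Iars2 at 791, 928, 794 and 877. Iars2 shares 2148 exonic bases with transcripts of the opposite strand, mostly of Rab3gap2. Ears2, for glutamate, was the member with the lowest log2 fold change in OHT+dox (−0.21 ± 0.18), at 136 in control, 137 with OHT, 154 with dox and 117 with OHT+dox. Hars2 was at 459 in control, 527 with OHT, 462 with dox and 532 with OHT+dox (0.21 ± 0.11), and did not pass although Hars, which starts next to it on the opposite strand and shares 195 exonic bases with it, rose with each treatment.

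The counts called in the cytosolic and mitochondrial sets are not on an equal footing, because the mitochondrial mRNAs had lower counts and larger errors. The median SE in OHT against control was 0.09 for the cytosolic and 0.14 for the mitochondrial set. With OHT the medians of the 2 sets were close, 0.27 and 0.25, although 11 of 20 and 5 of 16 passed. With dox the medians were 0.37 and 0.10, and with OHT+dox 0.56 and 0.30. The list medians were not tested against each other. In the 13 amino acids with 1 cytosolic and 1 mitochondrial enzyme, the cytosolic log2 fold change was the larger in 5 with OHT, in 10 with dox and in 8 with OHT+dox.

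The amino acid response was also read outside the synthetases, in 19 genes for ATF4, related factors and their targets. With dox 10 rose and 1 fell (52.6% and 5.26%, against 6.26% and 4.55% of all genes). With OHT 6 rose and 2 fell (31.6% and 10.5%, against 12.7% and 8.96%), and with OHT+dox 12 rose and 3 fell (63.2% and 15.8%, against 20.8% and 19.2%). The shares that fell were thus close to or below those of all genes. Asns, the asparagine synthetase, went from 342 in control to 671 with OHT, 759.8 with dox and 1035 with OHT+dox (1.60 ± 0.12). Psat1, of serine synthesis, went from 519 in control to 1078 with OHT, 1071 with dox and 1537 with OHT+dox (1.57 ± 0.11). Cth, the cystathionine gamma-lyase that makes cysteine, went from 44.8 in control to 96.8 with OHT, 81.8 with dox and 129 with OHT+dox (1.53 ± 0.25). These 3 rose with each treatment.

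Chac1, a glutathione-degrading enzyme induced by ATF4, rose in both groups with dox and did not pass with OHT, with 138 in control, 127 with OHT, 354 with dox and 381 with OHT+dox. OHT lay below dox in 5 of the 19 genes, where 7.57% of all genes were lower, and above it in none, where 8.73% were higher. The 5, named here after their values were seen, were Trib3 (−1.55 ± 0.26), Chac1 (−1.48 ± 0.17), Slc7a11 (−0.63 ± 0.18), Sesn2 (−0.57 ± 0.14) and Vldlr (−0.26 ± 0.09). Not every member of the list shared the pattern. Atf4 mRNA itself, which is controlled largely at translation, did not pass with dox (0.22 ± 0.09, Wald test, adjusted p = 0.0829) and rose with OHT+dox by 0.26 ± 0.09. The 3 that fell with OHT+dox, a share below that of all genes, were Atf3 (−1.41 ± 0.26), Vldlr (−0.66 ± 0.09) and Ddit3 (−0.28 ± 0.12), the last of which shares 68 exonic bases with Mars on the opposite strand. The part of ATF4 in the synthetase changes was not tested.

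**Figure D5:**
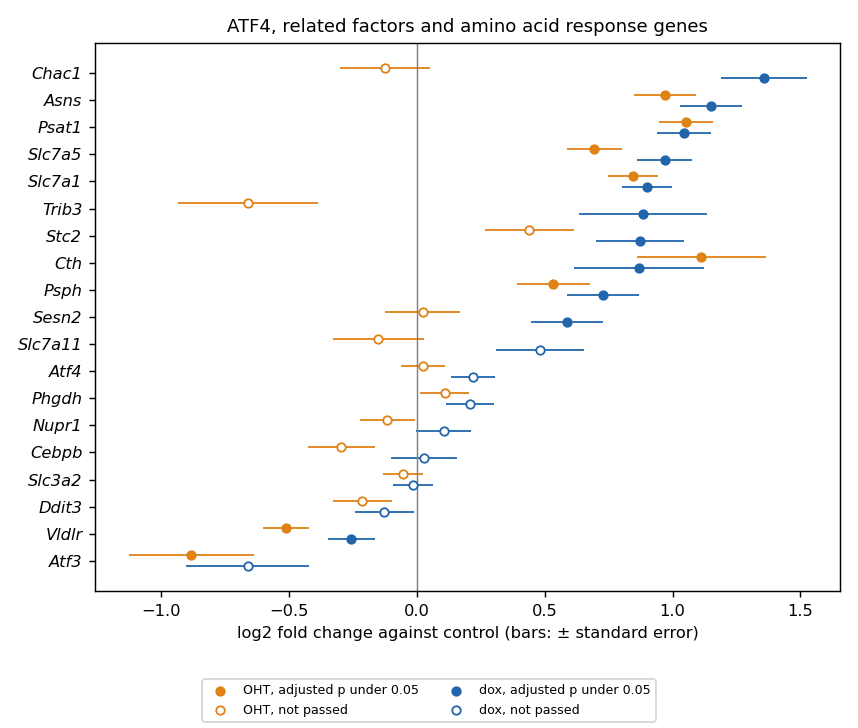
Log2 fold change against control with OHT (orange) and dox (blue) for ATF4, related factors and amino acid response genes, with bars for ± SE and filled points for an adjusted p under 0.05. Asns, Psat1, Slc7a5, Slc7a1, Cth and Psph are filled in both colours to the right of 0 and Vldlr to the left, whereas Chac1, Trib3, Stc2 and Sesn2 are filled for dox only.

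Other steps around tRNA charging were read from lists of related genes. Over all genes tested, 12.7% rose with OHT, 6.26% with dox and 20.8% with OHT+dox, and 19.2% fell with OHT+dox. The lists are short, so a count of none with dox is near the share of all genes. Among further enzymes of tRNA charging, Tarsl2, a threonyl-tRNA synthetase paralogue, rose from 232 in control to 426 with OHT and 451 with OHT+dox (0.96 ± 0.13) and stood at 248 with dox, whereas Pstk and Sepsecs, which serve selenocysteine, passed in no comparison with control. Tarsl2 was higher with OHT than with dox, whereas Tars, above, was lower. Of 5 genes for proofreading of mischarged tRNAs and related functions, 4 rose with OHT+dox. Among them were Dtd1, which removes D-amino acids from tRNA (0.79 ± 0.17), Ptrh2 (0.60 ± 0.10) and Aarsd1 (0.51 ± 0.16). With OHT 3 rose, and with dox none passed. Compared directly, only Dtd1 of the 5 was higher with OHT than with dox (0.69 ± 0.17), where 8.73% of all genes were higher. Prorsd1, named after its value was seen, was the gene of this list that fell with OHT+dox (−0.46 ± 0.19).

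Both tRNA exporters of the list rose with each treatment, Xpot by 0.58 ± 0.08 and Xpo5 by 0.65 ± 0.09 with OHT+dox. Elongation factors that bring charged tRNAs to the ribosome were read in both compartments. In mitochondria, Tufm went from 706 in control to 925 with OHT, 789 with dox and 1021 with OHT+dox (0.53 ± 0.10), and Tsfm from 139 to 208, 166 and 248 (0.84 ± 0.16). Both rose with OHT and OHT+dox and did not pass with dox. Their differences between OHT and dox did not pass either (0.23 ± 0.09 for Tufm and 0.33 ± 0.16 for Tsfm). In the cytosol, Eef1d, named after its value was seen, was the 1 of 4 genes that rose, with OHT (0.25 ± 0.08) and OHT+dox (0.35 ± 0.08). It did not pass with dox, and its difference between OHT and dox did not pass (0.10 ± 0.08). Eef1a1, the factor itself, was at 2885 in control and 2993 with OHT+dox (0.05 ± 0.08). Of 4 genes for mitochondrial transamidation and formylation, Gatc, likewise named after its value was seen, rose with OHT (0.40 ± 0.14) and OHT+dox (0.41 ± 0.14), and none rose with dox. For Gatc the difference between OHT and dox did not pass (0.37 ± 0.14, Wald test, adjusted p = 0.0504).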

How the data were processed

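Total RNA of 12 libraries was sequenced without poly(A) selection, using an unstranded kit. The authors mapped reads with TopHat2 2.0.8 to mm9, counted them with featureCounts 1.4.5-p1 and compared each of 3 treated groups with control in DESeq2 (version and annotation: not given in the sources used here). For each comparison, the deposited table holds a mean normalized count over 6 libraries (a signal already divided by size factors), a shrunken log2 fold change and an adjusted p-value, beside a differential call that was not used. The deposited log2 fold changes and adjusted p-values are the authors' own results: they are neither printed nor compared here, and served only to recover group means and errors.

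The Benjamini-Hochberg adjustment was undone, the SE was taken as the shrunken log2 fold change over its z value (not where p was above 0.9), and the shrinkage was undone with a prior SD of 0.447 (OHT), 0.337 (dox) and 0.620 (OHT+dox). Control and treated means followed, put on a common scale. Control means of the members differed between comparisons by at most 0.00275 on the log2 scale. A dispersion averaged over the 3 comparisons gave the SE; for 4 members it was missing in 1 comparison. Two-sided Wald tests of 6 pairs and the interaction ran over 12259 genes, with calls at a Benjamini-Hochberg adjusted p under 0.05. Scripts ran in Python 3.11.15 with numpy 2.4.6, pandas 2.3.3 and scipy 1.17.1 and were tested on simulated data. Exon overlaps came from GENCODE M21. Total counts per library cannot be had from the table; relative depths, 0.814 to 1.13, came from genes with a single read in a comparison.

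All members may be named. Values in all groups were given for the 10 cytosolic and 8 mitochondrial members with the largest OHT+dox changes, for members called in OHT+dox against OHT, OHT against dox or the interaction, or called lower, and for members not called in OHT+dox. Of the related lists, scaffolds and at most 4 genes a list with a called OHT+dox change above 0.5 were named, with exceptions marked; 1 gene of these lists is not reported here. Members and lists were chosen with earlier results of these data known. Promoters of 9 members had no entry: Cars, Hars, Hars2, Lars, Nars, Pars2, Rars, Vars and Wars.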

Additional observations from a re-analysis of the deposited data

How the results depend on the processing

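No result changed direction under the alternative settings tried, 9 for every comparison and 1, the own SE of each comparison, for those with control only. Asking in addition for an absolute log2 fold change above 0.5 left 1 cytosolic and 3 mitochondrial members higher with OHT, and 11 and 4 with OHT+dox. With dox it left 5 cytosolic members and the mitochondrial Mars2 and Yars2. Of all 12259 genes it left 782 higher with OHT, 298 with dox and 1333 with OHT+dox. In OHT+dox against OHT it left 1 cytosolic and 0 mitochondrial, in OHT+dox against dox 1 and 2, and in OHT against dox 0 cytosolic higher and 1 lower. The mitochondrial Mars2 and Nars2 stayed higher with OHT than with dox. Over all genes, 124 and 697 stayed higher in the first 2 of these, and in OHT against dox 527 higher and 385 lower. Scaling SEs to the spread of the interaction over all genes gave 11 mitochondrial members higher with OHT, 5 with dox and 11 with OHT+dox. Of all 12259 genes it gave 2489, 1745 and 3464 higher, in the same order. It also gave 14 cytosolic and 2 mitochondrial members in OHT+dox against OHT, 10 and 8 in OHT+dox against dox with 1 mitochondrial member lower, and 4 and 6 higher in OHT against dox. Of all 12259 genes, 1193, 2577 and 2218 were then higher in these 3 comparisons, so calls grew over all genes too. The rise of Mars2 over OHT was lost, with 0 mitochondrial members left, with the largest of the 3 dispersions, with groups scaled to equal sums and with a prior 20% smaller. The last also left 1 mitochondrial member, Mars2, higher with OHT than with dox.

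Calls of Rars (OHT), Hars (dox), Eprs and Tars2 (OHT+dox against dox) and Nars (OHT against dox) were each lost under at least 1 setting other than the fold minimum. Rescaling groups moved medians of all genes by −0.0198 to 0.0125 on the log2 scale. No paired analysis was possible because the table holds no value per library. For the same reason no replicate was left out and no library was checked for standing apart. The interaction, passed by 0 genes, had a spread narrower than its SEs assume (SD of z 0.695). With SEs scaled to it 6 genes were higher and 29 lower, and 3 were lower with a prior 20% smaller and 1 higher with it 20% larger. Depth limits the low-count mitochondrial genes, with SEs up to 0.217 against control.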
